A study of Saccharomyces cerevisiae with 26 samples.

Results

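The 5 genes described here are the flocculin genes FLO1 (YAR050W), FLO9 (YAL063C), FLO10 (YKR102W) and FLO11 (YIR019C, also MUC1), with FLO8 (YER109C), the gene of a transcription factor that acts on them. They were taken by symbol from the Saccharomyces cerevisiae probe sets of an Affymetrix yeast array and make up 5 of the 5445 genes tested, each read by 1 probe set without missing values. The genes were chosen on their log2 ratios over the 9 groups of these arrays, so their own levels and differences are given as descriptions without a test. The probe set of FLO9 (1779679_s_at) carries the suffix by which Affymetrix marks probes that may bind several transcripts, and its value may include other flocculin genes. The probe sets of FLO1 (1778830_at), FLO10 (1779467_at), FLO11 (1773183_at) and FLO8 (1773015_at) do not carry it. FLO5, a further flocculin gene, is not analysed here.

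Flocculins are proteins of the outer cell wall through which yeast cells stick to one another or to surfaces. Flo1, Flo9 and Flo10 carry a lectin-like domain that binds mannose chains on neighbouring cells, while Flo11 is better known for adhesion to surfaces, invasion of agar and filamentous growth. Most of the flocculin genes lie near chromosome ends and can be held silent, and they are opened by transcription factors that include Flo8, which acts downstream of cyclic AMP and protein kinase A. Strain S288C, used here, is known for a nonsense change in FLO8 that leaves it unable to flocculate or grow as filaments, and the RefSeq annotation of S288C lists FLO8 as a pseudogene.

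All 26 arrays came from haploid S288C of mating type alpha, grown at 32.5 °C and pH 5.5 in synthetic defined medium. Immobilized cells were enclosed in 3 mm calcium alginate beads in a reactor fed at 6 L per h with medium of 100 g/L glucose, and were taken at days 1, 3 and 5 (4 arrays each) and at days 10 and 17 (3 arrays each). Day 0 (2 arrays) is called preimmobilized in the titles, whereas the source field puts it just after immobilization. Its growth label and RNA extraction are those of the beads. Free cells came from a chemostat held anaerobic, with 1 g/L glucose in the feed and dilution at 0.15 per h (72 h, 2 arrays), and from an anaerobic batch with 10 g/L glucose in stationary phase (72 h, 2 arrays) and in log phase (12 h, 2 arrays). The labels do not say whether replicate arrays stem from separate cultures, so p-values reflect only how these arrays vary, and that variation may be technical. Beads and free cells had their RNA extracted by different methods, so culture and extraction cannot be told apart in comparisons between them. Day 1 against day 0 carries the same extraction label on both sides.

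Values are log2 of the deposited ratio, in which the signal of a probe set is set against its own median over the 26 arrays. Since 18 of the 26 arrays are of beads, bead values lie near 0 for most genes by construction, and a value of -1 means a signal of 0.5 times that median. Ratios hold no absolute level, so the flocculin genes cannot be ranked against one another, and whether a low value lies at the background of the array is not known. An array averages over all cells of a sample, so more cells with a transcript and more transcript per cell cannot be told apart. As a sign of RNA quality, the log2 signal of 8 control genes at the 3' end minus that at the 5' end ran from -0.257 to 0.487 (median 0.155) over the bead arrays and from -0.466 to 0.14 (median -0.224) over free cells and day 0. The interquartile range of log2 ratios over the genes was narrower in beads, with a median of 0.518 against 0.984 in free cells and day 0. The narrower range in beads follows at least in part from setting each probe set against a median over mostly bead arrays. The part of these 2 measures in the results was not tested.

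FLO1, the flocculin gene best known for flocculation, separated the arrays into 2 sets without overlap. At day 1 its log2 ratio was 1.25, 0.77, -1.26 and 0.05, at day 3 it was -0.05, 1.40, 0.73 and -0.07, and at day 5 it was -0.73, 0.76, 1.07 and 0.55. At day 10 it was 0.16, 0.23 and 0.07, and at day 17 it was 0.60, -0.10 and 0.20. All of these lay far above the 8 other arrays. Those stood at -4.76 and -4.30 at day 0, -4.84 and -4.40 in the chemostat, -4.22 and -4.63 in stationary phase and -4.71 and -4.91 in log phase. The lowest bead array, day 1 replicate 3 at -1.26, was still above the highest of the others, stationary phase replicate 1 at -4.22. Free cells and day 0 spanned 0.69 (log2) among themselves, less than the gap that parted them from the beads.

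**Figure D1:**
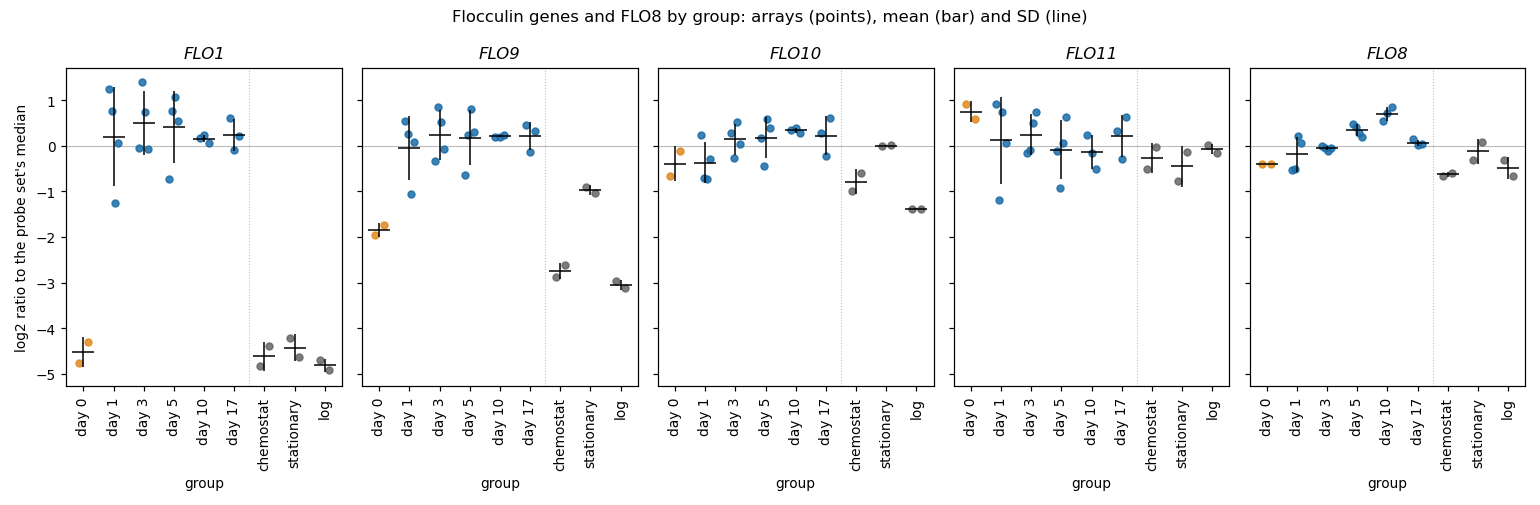
Log2 ratio (vertical axis, relative to each probe set's median over 26 arrays) of the 5 genes in every array, by group, with points for arrays and bars for the group mean ± SD. The 18 bead arrays of FLO1 lie between -1.26 and 1.40, and its 8 arrays of day 0 and free cells lie between -4.91 and -4.22.

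In order of group means, FLO1 stood at 0.50 ± 0.70 (SD, n = 4) at day 3, 0.41 ± 0.79 (n = 4) at day 5, 0.23 ± 0.35 (n = 3) at day 17, 0.20 ± 1.09 (n = 4) at day 1 and 0.15 ± 0.08 (n = 3) at day 10. Arrays of neighbouring days in this order overlapped. A gap of 4.58 separated day 10 from stationary phase at -4.43 ± 0.29 (n = 2), followed by day 0 at -4.53 ± 0.33, the chemostat at -4.62 ± 0.31 and log phase at -4.81 ± 0.14 (n = 2 each), which overlapped from one to the next. Among beads the spread between arrays was widest at day 1. The day 1 array lowest in FLO1, replicate 3, also had the highest 3' minus 5' difference of all arrays (0.487), while day 1 replicates 1 and 2, the 2 highest in FLO1 on that day, had -0.187 and -0.257. The part of RNA quality in this spread was not tested.

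FLO9 encodes a lectin-like protein close in sequence to Flo1. By its suffix the probe set of FLO9 may read other transcripts, and which ones could not be looked up. Its log2 ratio was 0.54, 0.25, -1.07 and 0.08 at day 1, -0.33, 0.85, 0.52 and -0.08 at day 3, -0.64, 0.22, 0.80 and 0.31 at day 5, 0.19, 0.19 and 0.23 at day 10, and 0.45, -0.13 and 0.33 at day 17. It was -1.96 and -1.74 at day 0, -2.87 and -2.62 in the chemostat, -0.89 and -1.04 in stationary phase, and -2.97 and -3.12 in log phase. Unlike FLO1, its free-cell groups stood apart from each other. The means fell in the order stationary phase (-0.97 ± 0.11), day 0 (-1.85 ± 0.16), chemostat (-2.74 ± 0.18) and log phase (-3.04 ± 0.11, SD, n = 2 each), and no 2 neighbours in this order overlapped. The bead days had means from -0.05 ± 0.71 at day 1 (SD, n = 4) to 0.24 ± 0.54 at day 3 (n = 4), with overlapping arrays, and the lowest day 1 array reached below both arrays of stationary phase.

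FLO10, whose product gives both flocculation and adhesion when made in large amounts, varied less. Its bead arrays ran from -0.72 to 0.61 with a median of 0.25, and its log2 ratio was -0.67 and -0.13 at day 0, -0.99 and -0.59 in the chemostat, and -1.38 and -1.39 in log phase. Both stationary-phase arrays lay within the range of the beads, with a mean of 0.0014 ± 0.0082 (SD, n = 2). The order of means began with day 10 (0.33 ± 0.06, n = 3) and days 17, 5 and 3, went on with stationary phase, day 1 (-0.37 ± 0.45, n = 4), day 0 (-0.40 ± 0.38, n = 2) and the chemostat (-0.79 ± 0.28, n = 2), and ended with log phase (-1.38 ± 0.01, n = 2). Log phase was below every other array.

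FLO11, the gene of the surface adhesin of biofilms and filaments, showed no such pattern. Its log2 ratio was 0.90, -1.19, 0.74 and 0.05 at day 1, and over all bead arrays it ran from -1.19 to 0.90 with a median of 0.06. It was 0.91 and 0.58 at day 0, -0.51 and -0.03 in the chemostat, -0.77 and -0.13 in stationary phase and 0.01 and -0.15 in log phase. Day 0 had the highest mean (0.74 ± 0.23, SD, n = 2) and stationary phase the lowest (-0.45 ± 0.45, n = 2), and every group overlapped its neighbours in the order of means. Replicates of day 1 differed by more than the 9 group means did.

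FLO8, the activator gene, had a narrower span than FLO1, FLO9 and FLO10 and varied with the day in beads. At day 1 its log2 ratio was -0.52, -0.50, 0.21 and 0.05, and at day 3 it was -0.01, -0.06, -0.11 and -0.04. At day 5 it was 0.47, 0.41, 0.29 and 0.18, at day 10 it was 0.53, 0.72 and 0.84, and at day 17 it was 0.14, 0.01 and 0.04. Days 10 (0.70 ± 0.16, n = 3), 5 (0.34 ± 0.13, n = 4), 17 (0.07 ± 0.07, n = 3) and 3 (-0.06 ± 0.04, n = 4) did not overlap one another in this order, so day 17 lay below days 5 and 10. It was -0.41 and -0.40 at day 0, -0.67 and -0.59 in the chemostat, -0.32 and 0.07 in stationary phase and -0.31 and -0.67 in log phase. The chemostat had the lowest mean (-0.63 ± 0.06, n = 2), and its 2 arrays lay below all 18 bead arrays.

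Immobilized cells as a whole, the equal mean of days 1 to 17, were then set against each kind of free cell. The SE rests on 1 spread per gene, pooled over the 9 groups and mostly that of bead arrays. In limma's eBayes step this spread is also drawn toward a value shared by all genes. The SE is therefore not the spread of the groups compared. The median SD of a gene was 0.093 to 0.169 in free cells and day 0, and 0.244 to 0.482 over the bead days, widest at day 1. Against log phase FLO1 was higher by 5.11 ± 0.46 (log2, SE), a ratio 34.5 times that of log phase, FLO9 by 3.20 ± 0.33 (9.19 times) and FLO10 by 1.48 ± 0.26 (2.80 times). FLO8 was higher by 0.66 ± 0.17 and FLO11 by 0.14 ± 0.40, and their bead arrays overlapped the log-phase arrays. The bead arrays lay above both log-phase arrays for 3 of the 5 genes, as for 13.4% of all 5445 genes. With quantile normalization repeated over the genes, which gives all arrays the same spread, the differences were 3.03 for FLO1 and 1.88 for FLO9.

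Stationary phase differed from this for FLO9 and FLO10. Against stationary phase FLO1 was higher in immobilized cells by 4.73 ± 0.46, or 26.5 times, but FLO9 by only 1.13 ± 0.33 and FLO10 by 0.10 ± 0.26. FLO11 differed by 0.52 ± 0.40 and FLO8 by 0.30 ± 0.17. Only FLO1 of the 5 had no overlap here, against 11.7% of all genes that lay higher without overlap. Against the chemostat FLO1 was higher by 4.92 ± 0.46 (30.2 times), FLO9 by 2.90 ± 0.33 (7.46 times), FLO10 by 0.89 ± 0.26, FLO8 by 0.80 ± 0.17 and FLO11 by 0.34 ± 0.40. Repeated quantile normalization gave 3.33 for FLO1 against stationary phase, and 3.59 for FLO1 and 2.19 for FLO9 against the chemostat. FLO1, FLO9 and FLO8 did not overlap, 3 of 5, where 7.79% of all genes lay higher without overlap. The 3 comparisons share the bead arrays.

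**Figure D2:**
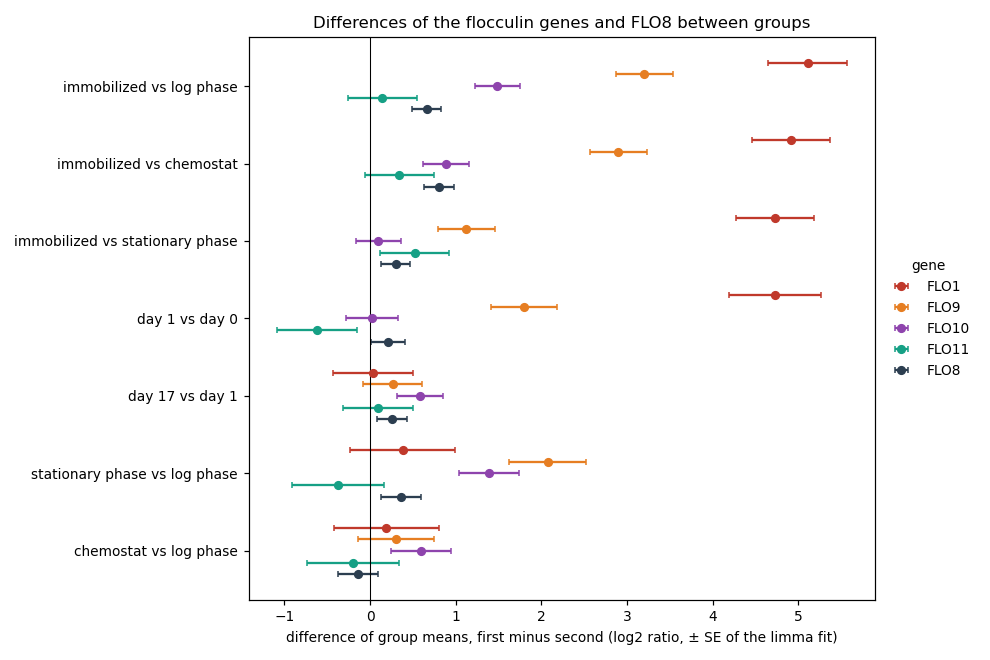
Difference in log2 ratio (horizontal axis) of each of the 5 genes in each comparison, the group named first minus the one named second, with bars for the SE from the model of 9 group means. FLO1 is higher in immobilized cells by 4.73 to 5.11 in the comparisons with free cells, and FLO11 differs by 0.14 to 0.52.

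Free cells also differed among themselves. The SE given here again rests on the spread pooled with the beads, which for a median gene was wider than that of free cells. In stationary phase, FLO9 was higher than in log phase by 2.07 ± 0.45 (4.21 times) and FLO10 by 1.39 ± 0.35 (2.61 times), while FLO1 differed by 0.38 ± 0.62, FLO8 by 0.36 ± 0.23 and FLO11 by -0.38 ± 0.54. The arrays of FLO1, FLO9 and FLO10 did not overlap, 3 of 5, but 43.5% of all genes lay higher without overlap between these 2 pairs of arrays. In the chemostat the differences from log phase were 0.19 ± 0.62 for FLO1, 0.30 ± 0.45 for FLO9, 0.60 ± 0.35 for FLO10, -0.14 ± 0.23 for FLO8 and -0.20 ± 0.54 for FLO11. FLO9 and FLO10 did not overlap there, 2 of 5 beside 31.3% of all genes. Repeated quantile normalization moved the stationary-phase differences to 0.92 for FLO9, 0.82 for FLO10 and -0.29 for FLO1, and those of the chemostat to -0.31 for FLO9, 0.13 for FLO10 and -0.56 for FLO1.

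Between consecutive times FLO1 and FLO9 differed most from day 0 to day 1. The labels conflict on whether day 0 was taken before or just after immobilization. Day 1 minus day 0 was 4.73 ± 0.53 for FLO1 (26.5 times), 1.80 ± 0.39 for FLO9 (3.48 times), 0.03 ± 0.31 for FLO10, 0.21 ± 0.20 for FLO8 and -0.62 ± 0.47 for FLO11. FLO1 and FLO9 did not overlap, 2 of 5, and 20.8% of all genes lay higher without overlap. Repeated quantile normalization gave 3.34 for FLO1, and array weights 5.52 for FLO1 and -0.0433 for FLO8. For FLO1 and FLO9 the later days differed less. Day 17 minus day 1 was 0.03 ± 0.47 for FLO1, 0.26 ± 0.34 for FLO9, 0.59 ± 0.27 for FLO10, 0.09 ± 0.41 for FLO11 and 0.26 ± 0.18 for FLO8. In all 5 genes the arrays of these 2 days overlapped, where 6.80% of all genes did not overlap in either direction. The direction of these small differences depended on the setting, since array weights gave -0.92 for FLO1, -0.31 for FLO9 and -0.65 for FLO11. Without day 1 replicate 3 it was -0.45 for FLO1 and -0.0765 for FLO9, and without day 1 replicate 2 it was -0.35 for FLO11.

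Within the beads FLO1 and FLO9 varied together from array to array. Over the 18 bead arrays Pearson's r was 0.94 and Spearman's rho 0.91, and over deviations from the mean of each day r was 0.96, with 13 of 18 arrays deviating the same way. The same RNA is read in both, and the FLO9 probe set may bind FLO1 transcripts, so this is a description and not a count of separate events. FLO10 and FLO1 had r of 0.21 over the bead arrays, FLO11 and FLO1 -0.13, and FLO10 and FLO11 0.42. FLO8 and FLO1 had r of -0.37, or -0.68 for deviations from the day means, but the latter rests mostly on the arrays of day 1. The SD of FLO8 was 0.38 at day 1 and from 0.04 to 0.16 on the other bead days. At day 1 the 3' minus 5' difference also varied, from -0.257 to 0.487, and its part in this r was not tested. A pooled r over all 26 arrays would describe only the 2 sets of arrays of FLO1.

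**Figure D3:**
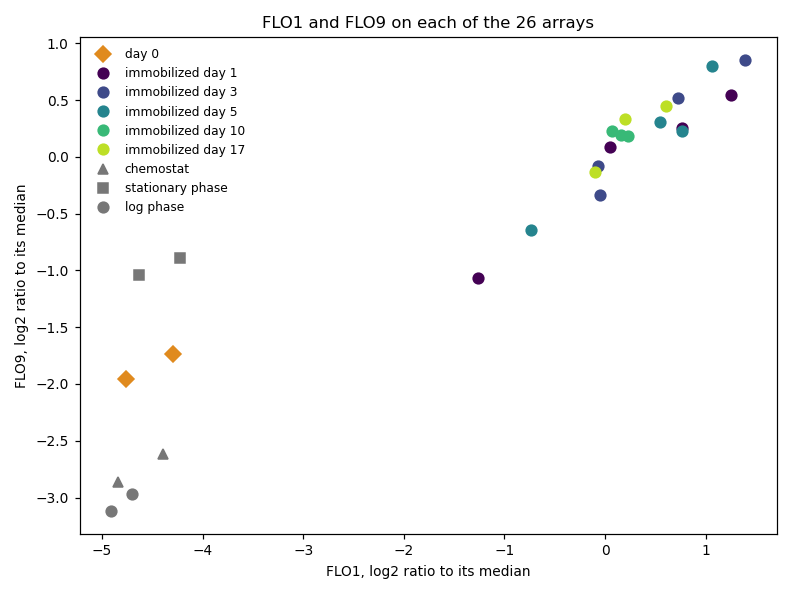
Log2 ratio of FLO9 (vertical axis) against that of FLO1 (horizontal axis) in each of the 26 arrays, by group. The bead arrays lie along a line (r of 0.94 over 18 arrays), and the other 8 arrays share a narrow range of FLO1 but spread in FLO9 from -3.12 to -0.89.

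The pathways known to act on flocculin genes were described from 6 lists written from general knowledge, 73 measured genes in all. A gene was called where it differed by a factor of at least 2 with limma's Benjamini-Hochberg adjusted p under 0.05. In immobilized against log-phase cells 10 of the 73 rose and 7 fell, or 13.7% and 9.59%, beside 15.9% and 14.7% of all genes. The median difference over the lists was 0.20 and over all genes -0.0074. Against stationary phase 8 rose and 10 fell (11.8% and 14.4% of all genes), and against the chemostat 7 rose and 4 fell (9.55% and 9.94% of all genes). Pooled, these shares lie near or below those of all genes, but single lists differed. Of 14 promoter regulators 35.7% rose and 7.14% fell against log phase, and 7.14% rose and 35.7% fell against stationary phase. Of 13 Snf1 and glucose repression genes 38.5% rose and 23.1% fell against stationary phase, and 30.8% rose and 0% fell against the chemostat. Of 14 chromatin factors 0 were called against log phase or the chemostat. The lists are small, and no list was tested as a set.

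Direct regulators of flocculin promoters included 5 that rose and 1 that fell of 14 against log phase. MGA1, a heat shock factor-like protein of filamentous growth, averaged 0.05 in immobilized cells and -3.08 in log phase, a rise of 3.13 ± 0.53 (adjusted p = 8.04e-05). HMS1, a helix-loop-helix protein of filamentous growth, rose by 2.63 ± 0.36 (adjusted p = 8.3e-06), and ASH1, a repressor inherited by daughter cells that also acts on FLO11, by 1.59 ± 0.24 (adjusted p = 2.61e-05). Against stationary phase 1 rose and 5 fell. HMS1 rose by 2.21 ± 0.36, whereas SFL1, a repressor of flocculation, fell by 1.76 ± 0.44 (adjusted p = 0.00269) and SOK2, a repressor of filamentous growth, fell by 1.69 ± 0.28 (adjusted p = 6.62e-05). The fall was not limited to repressors, since the activator gene MIT1 was at -1.48 ± 0.40 (adjusted p = 0.00505). MSN1 was at -1.56 ± 0.23 (adjusted p = 1.87e-05) and MSS11 at -1.14 ± 0.14 (adjusted p = 2.16e-06). MIT1, MSN1 and MSS11 were named here after their values were seen. The call of SFL1 was lost without stationary phase replicate 1 and with repeated quantile normalization, which also ended that of MGA1 against log phase.

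Against the chemostat 2 of these 14 regulators rose and 1 fell. MGA1 rose by 2.69 ± 0.53 (adjusted p = 0.000696) and ASH1 by 1.33 ± 0.24 (adjusted p = 0.000359), while MIT1, an activator of FLO genes and filamentous growth, fell by 1.25 ± 0.40 (adjusted p = 0.0194). The call of MGA1 was lost without chemostat replicate 1, that of MIT1 without either chemostat array and with the mean of days 10 and 17, and both with repeated quantile normalization. At day 1 against day 0, where 4.11% of the 73 genes rose and 9.59% fell beside 9.97% and 10.3% of all genes, 3 of the 14 fell and 0 rose. In limma 7 of the 14 had an unadjusted p under 0.05. PHD1, an activator of filamentous growth, was lower by -1.54 ± 0.57 (adjusted p = 0.0463), SOK2 by -1.30 ± 0.33 (adjusted p = 0.00517) and MIT1 by -1.23 ± 0.46 (adjusted p = 0.0492). None of these 3 calls was kept with repeated quantile normalization, that of PHD1 was lost without any 1 of 17 arrays, that of MIT1 without any 1 of 21 and with each array shifted to a median of 0, and that of SOK2 without day 0 replicate 1. With only day 1 and day 0 in the model, the calls of PHD1, SOK2, MIT1, NRG1, BCY1 and SAG1 in this comparison were lost.

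Glucose signalling at flocculin genes runs through the kinase Snf1, which relieves repression by Nrg1, Nrg2 and the Mig proteins. Of 13 genes 3 rose and 0 fell against log phase, 5 rose and 3 fell against stationary phase, and 4 rose and 0 fell against the chemostat. In limma 5, 8 and 5 of them had an unadjusted p under 0.05 in these comparisons. TOS3, one of the kinases that activate Snf1, was higher by 2.16 ± 0.35 than in log phase (adjusted p = 6e-05), by 3.78 ± 0.35 than in stationary phase (adjusted p = 5.33e-08) and by 2.52 ± 0.35 than in the chemostat (adjusted p = 2.71e-05). The repressor gene NRG2 rose by 4.04 ± 0.27 against stationary phase (adjusted p = 4.33e-10) and by 1.34 ± 0.27 against log phase (adjusted p = 0.00043). NRG1, its close relative, rose by 2.89 ± 0.52 against log phase and 1.85 ± 0.52 against the chemostat, and MIG2 by 2.76 ± 0.74 against stationary phase and 4.07 ± 0.74 against the chemostat. The 3 genes that fell against stationary phase were SIP2, for a subunit of the Snf1 complex, at -1.96 ± 0.30 (adjusted p = 3.25e-05), REG1, for a subunit of the phosphatase that acts on Snf1, at -1.13 ± 0.22 (adjusted p = 0.000279), and the repressor gene MIG1 at -1.02 ± 0.30 (adjusted p = 0.00979), all 3 named after their values were seen. The calls of REG1 and MIG1 were lost with repeated quantile normalization and with the mean of days 10 and 17, and that of MIG1 also without day 1 in the mean, with array weights, without either stationary-phase array, and without day 1 replicate 2, day 5 replicate 2 or 4, or day 17 replicate 1. Both calls of NRG1 and that of MIG2 against stationary phase were lost with repeated quantile normalization, that of NRG1 against the chemostat without either chemostat array, and that of MIG2 without stationary phase replicate 1.

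At day 1 against day 0 this list split in direction, with 2 of 13 genes higher and 2 lower. NRG2 rose by 2.78 ± 0.31 (adjusted p = 1.71e-06) and TOS3 by 2.18 ± 0.41 (adjusted p = 0.000428). NRG1 fell by 2.16 ± 0.61 (adjusted p = 0.0105), a call lost without day 0 replicate 2 and with repeated quantile normalization.

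In the cyclic AMP and protein kinase A pathway, which acts through Flo8 in strains that have it intact, 1 of 13 genes rose and 1 fell against log phase. PDE1, which breaks down cyclic AMP, rose by 2.44 ± 0.28 (adjusted p = 8.89e-07) and RAS1, which turns on adenylate cyclase, fell by 2.04 ± 0.25 (adjusted p = 2.09e-06). The same 2 genes were the ones called against the chemostat, with 1.74 ± 0.28 for PDE1 (adjusted p = 0.000106) and -1.69 ± 0.25 for RAS1 (adjusted p = 4.71e-05). Against stationary phase 0 of 13 were called by limma, although 9 had an unadjusted p under 0.05. At day 1 against day 0 GPA2, the G protein of the glucose receptor Gpr1, fell by 1.82 ± 0.25 (adjusted p = 1.41e-05), and BCY1, the inhibitory subunit of protein kinase A, fell by 1.10 ± 0.25 (adjusted p = 0.00199). The call of BCY1 was lost without day 1 replicate 3, with array weights and with repeated quantile normalization.

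The MAP kinase pathway of filamentous growth, which acts mainly on FLO11, had 1 of 15 genes higher and 3 lower against log phase. SHO1, a membrane sensor, fell by 1.63 ± 0.24 (adjusted p = 1.84e-05), TEC1, the transcription factor that pairs with Ste12, by 1.18 ± 0.26 (adjusted p = 0.000828), and the kinase gene STE11 rose by 1.30 ± 0.16 (adjusted p = 1.9e-06). The calls of TEC1 and STE11 were lost with repeated quantile normalization, and that of TEC1 also with the mean of days 10 and 17. Against stationary phase the MAP kinase gene KSS1 rose by 1.56 ± 0.31 (adjusted p = 0.000355) and STE7, the gene of the kinase before it, fell by 1.21 ± 0.22 (adjusted p = 0.000148). Against the chemostat SHO1 was the 1 called gene, with -1.03 ± 0.24 (adjusted p = 0.00245). Repeated quantile normalization ended the calls of STE7 and of SHO1 against the chemostat, and that of SHO1 was also lost without either chemostat array. At day 1 against day 0 limma called 0 of 15, and 8 had an unadjusted p under 0.05.

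Of the chromatin factors known to silence or open flocculin genes, limma called 0 of 14 against log phase, against the chemostat and at day 1 against day 0, each with 2 at an unadjusted p under 0.05. Against stationary phase HDA1, the histone deacetylase of the Hda1 complex, rose by 1.66 ± 0.22 (adjusted p = 4.14e-06) and HDA3, another subunit, fell by 1.84 ± 0.60 (adjusted p = 0.0167). The call of HDA3 was lost without either stationary-phase array and with repeated quantile normalization. Of the 4 other adhesin genes, which encode the agglutinins and a relative that bind mating cells, SAG1 fell by 1.61 ± 0.30 (adjusted p = 0.000234) and AGA1 by 1.36 ± 0.36 (adjusted p = 0.00376) against log phase. AGA2 fell by 1.14 ± 0.19 against the chemostat (adjusted p = 0.000146), and SAG1 rose by 1.03 ± 0.35 at day 1 against day 0 (adjusted p = 0.031). Each of these adhesin calls was lost with repeated quantile normalization, that of AGA1 also without log phase replicate 1, and that of SAG1 at day 1 also without either day 0 array or day 1 replicate 1, 2 or 3, and with the replicate block (0.90). SAG1 and AGA1 thus moved opposite to FLO1 against log phase.

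**Figure D4:**
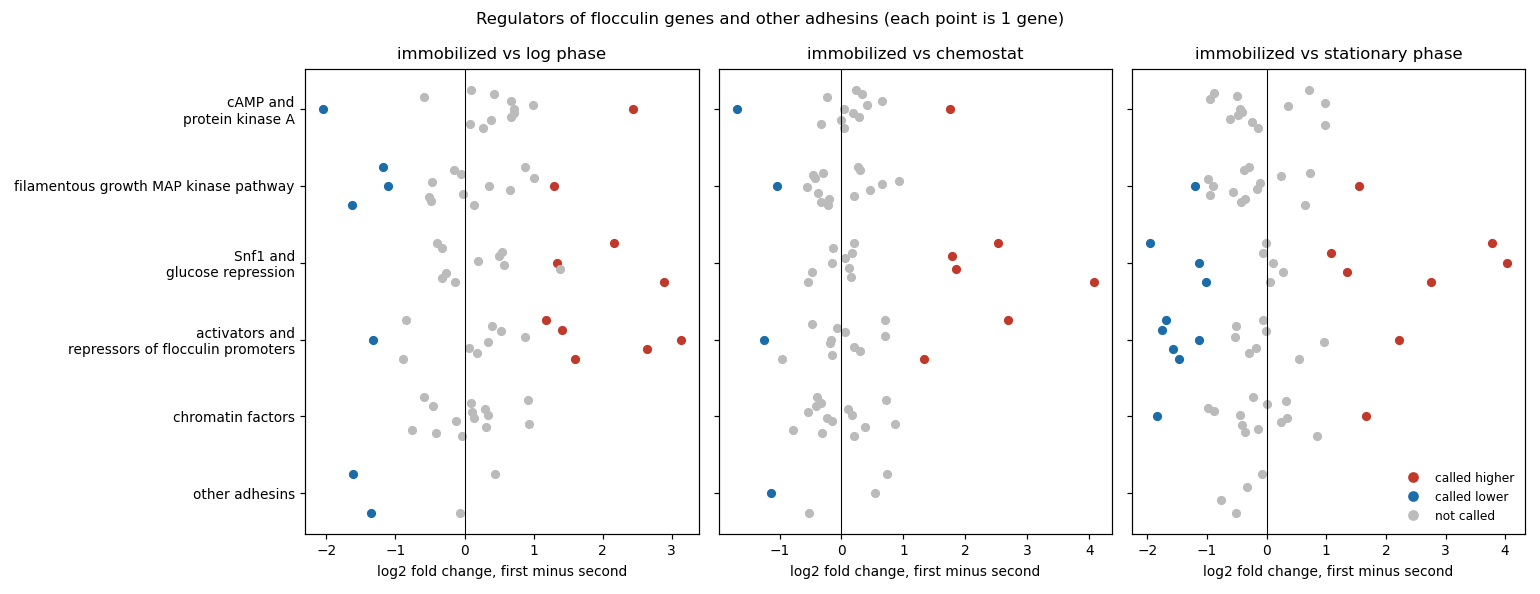
Log2 fold change of each measured gene of the 6 lists (points, horizontal axis), immobilized cells minus each kind of free cell, by list, with genes called higher in red, called lower in blue and not called in grey. Against log phase 10 of 73 genes rose and 7 fell, and no gene of the lists reached the 5.11 of FLO1.

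Between day 1 and day 17 limma called 0 of the 73 list genes, with 14 at an unadjusted p under 0.05, and 0.294% of all genes. Without day 1 replicate 4, 7 of the 73 rose and 2 fell. Of the mating-type markers, the alpha-cell genes MF(ALPHA)1, MF(ALPHA)2, STE3 and SAG1 all fell against log phase, with means of 0.34 for MF(ALPHA)1 in immobilized cells and 3.49 in log phase. Of these 4, 0 were called against stationary phase, 2 fell against the chemostat and 3 rose at day 1 against day 0. Of the 5 a-cell markers 1 rose against log phase, 1 fell against stationary phase, 1 rose and 1 fell against the chemostat, and 2 fell at day 1 against day 0. Ratios cannot show whether either set is absent, so these changes do not check the mating type.

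Since flocculin genes lie near chromosome ends, the 2 nearest measured genes on each side of each of the 5 genes were read from the gene order of the RefSeq annotation of S288C. Protein-coding genes and pseudogenes, counted together, to the nearer chromosome end numbered 4 for FLO10, 5 for FLO1, 8 for FLO9, 24 for FLO11 and 89 for FLO8. The neighbours of FLO1 did not move with it. In immobilized against log-phase cells limma called 0 of its 4 neighbours, 1 of them with an unadjusted p under 0.05, with SWH1 at 0.74 ± 0.26 (adjusted p = 0.0214) and YAR064W at -0.71 ± 0.49 (adjusted p = 0.24). Against stationary phase 3 of the 4 fell, YAR064W by 3.00 ± 0.49 (adjusted p = 5.21e-05), YAR066W by 1.88 ± 0.31 and YAR035C-A by 1.63 ± 0.26. At day 1 against day 0, YAR035C-A fell by 2.52 ± 0.30 (adjusted p = 3.26e-06) and YAR066W by 1.86 ± 0.36 (adjusted p = 0.000553).

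FLO9 and FLO10 had neighbours that rose with them against log phase. Beside FLO9, BDH2, a putative butanediol dehydrogenase gene, rose by 1.79 ± 0.32 (adjusted p = 0.000139), YAL063C-A by 1.44 ± 0.33 and YAL064W by 1.28 ± 0.43, and the same 3 rose against the chemostat by 1.19 to 1.41. Against stationary phase BDH2 fell by 2.32 ± 0.32, YAL064W fell by 1.19 ± 0.43, and GDH3, a glutamate dehydrogenase gene, fell by 2.51 ± 0.59. At day 1 against day 0, where FLO9 was higher by 1.80 ± 0.39, its neighbours did not rise with it. GDH3 fell by 2.45 ± 0.68 (adjusted p = 0.0103) and BDH2 by 1.16 ± 0.37 (adjusted p = 0.022). Both of these calls were lost without either day 0 array, with repeated quantile normalization and with only the groups compared. That of BDH2 was also lost with array weights and without day 1 replicate 3. Beside FLO10, SIR1, which silences the mating-type loci, rose by 1.53 ± 0.26 and SKG1 by 1.83 ± 0.33 against log phase. SKG1 also rose by 2.09 ± 0.33 against stationary phase. Near FLO11, the transcription factor gene YAP5 rose by 1.10 ± 0.28 and MRS1, for splicing of mitochondrial introns, fell by 1.07 ± 0.26 against log phase. On both sides of FLO8 the nearest genes were not called against log phase, with GLE2, a nuclear pore gene, at -0.65 ± 0.15 (adjusted p = 0.00173) and KAP123, a nuclear import gene, at -0.68 ± 0.17 (adjusted p = 0.00244). MAM1, a meiotic kinetochore gene beyond GLE2, rose by 3.50 ± 0.60 (adjusted p = 0.000112). Repeated quantile normalization ended the calls of YAR064W, YAR035C-A, GDH3 and YAL064W against stationary phase, those of BDH2, YAL064W, SIR1, YAP5 and MRS1 against log phase, and those of BDH2 and YAL064W against the chemostat. The call of YAL064W against log phase was lost without either log-phase array, that of YAP5 without log phase replicate 1 and with the replicate block, and that of MRS1 without log phase replicate 2. That of YAL064W against stationary phase was lost without stationary phase replicate 2, with the replicate block, without day 1 in the mean and with the mean of days 10 and 17. Against the chemostat the 3 calls near FLO9 were each lost without chemostat replicate 1. In all, 7 of 20 neighbours rose and 1 fell against log phase, 2 rose and 6 fell against stationary phase, and 6 rose and 0 fell against the chemostat. At day 1 against day 0, 1 rose and 5 fell. In limma 14, 13, 14 and 9 of the 20 had an unadjusted p under 0.05 in these comparisons. Over all genes 15.9% rose and 14.7% fell against log phase, 11.8% and 14.4% against stationary phase, and 9.55% and 9.94% against the chemostat. At day 1 against day 0 these shares were 9.97% and 10.3%. FLO1 stands apart in size from its own neighbours, whose differences from log phase ran from -0.71 to 0.74.

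**Figure D5:**
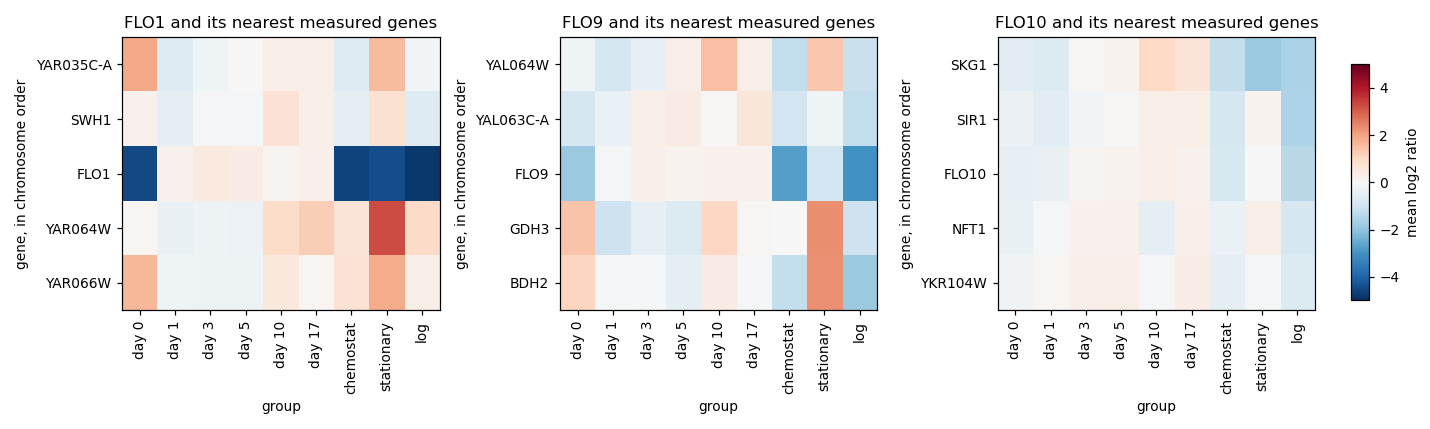
Mean log2 ratio (colour scale, blue below and red above the probe set's median) in each of the 9 groups (horizontal axis) for FLO1, FLO9 and FLO10 and the 2 nearest measured genes on each side, in chromosome order (vertical axis). The row of FLO1 is deep blue at day 0 and in free cells, with means from -4.81 to -4.43, while YAR064W, the nearest measured gene on one side, reached 3.25 in stationary phase.

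Genes with the pattern of group means most like each member were sought among 4556 genes whose 9 group means span at least 1 (log2). For FLO1 the highest Pearson correlations, each 0.98, were with YSR3, a sphingoid base phosphate phosphatase gene, MSN4, a general stress transcription factor gene, and PAU2, a seripauperin gene, and 74 genes had r over 0.9. For these 3 genes r over the 18 bead arrays was 0.63, 0.11 and 0.44. The 0.94 between FLO1 and FLO9 is no yardstick for them, since the FLO9 probe set may bind FLO1 transcripts. FLO9 was most like PDR11, a sterol uptake transporter gene, ASH1 and HRD1, an endoplasmic reticulum ubiquitin ligase gene (each 0.98), and FLO10 most like PDE1, YNL165W and DAS1 (each 0.99). FLO8 was most like YOR293C-A, YOL097W-A and SWM2 (each 0.97). FLO11 had the fewest genes like it, with 2 over 0.9, EHD3 at 0.96 and TPO5, a polyamine transporter gene, at 0.94, followed by YUR1 at 0.89. The 9 means share arrays and normalization, and with FLO1 in 2 sets such values mainly say that a gene differs between beads and the rest.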

How the data were processed

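Total RNA of 26 samples was hybridized to Affymetrix yeast arrays of 10928 probe sets. The deposited values are linear ratios made by the authors after RMA, per the submitters' processing notes (no version is given in the sources used here). A probe set's ratios over the arrays had medians from 0.9905 to 1.047, and their log2 was used. The platform annotation tied 5498 probe sets to 1 yeast gene, for 5449 genes. Of several for a gene (47 genes) that of highest mean ratio was kept, and 4 genes with missing values were left out, which left 5445. Coordinates are not given, since the sources name no genome build. The number of arrays limits the precision.

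A model of 9 group means was fitted with limma 3.58.1 (lmFit and eBayes, R 4.3.3), adjusted by Benjamini-Hochberg over 5445 genes. Calls needed a change of at least 1 (log2) in size and an adjusted p below 0.05. The members, lists and comparisons were chosen with earlier results of these data known. Named genes are the members, up to 3 called genes of each list and comparison with the largest change, the 3 genes most like each member and its 2 nearest measured genes on each side. The calling of genes was tried on simulated data, only for immobilized cells against each kind of free cell. The simulated noise was independent between genes and arrays, so it says nothing on variation shared within an array or culture. Alternatives were repeated quantile normalization, a median shift, only the groups compared, a replicate block, array weights, other days, averaged probe sets, a trended prior, no fold minimum, a filter on genes that hardly vary and leaving out each array. The correlations over bead arrays only were added after seeing the data. Equal replicate numbers were not treated as pairs. Between bead days this was checked only for day 17 with day 1, and pairing among the other bead days was not tested. Python 3.11.15 with matplotlib 3.10.9 drew the figures.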

Additional observations from a re-analysis of the deposited data

How the results depend on the processing

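Of 1150 recomputed differences of the 5 genes 1125 moved by less than 1 SD, the gene's residual SD over all 9 groups. Many of them could not move. Leaving out an array of neither group, fitting only the groups compared, or averaging probe sets for genes with 1 probe set leaves a difference of group means unchanged. The count is therefore no measure of how stable the differences are. The widest shifts came from repeated quantile normalization, which gives bead arrays, narrower as deposited, the same spread as the others by construction. It likewise narrows the arrays of free cells and day 0, so differences from them tend to shrink in part by construction. How far the calls lost with it reflect this rescaling was not tested. With repeated quantile normalization, immobilized minus log phase was 3.03 for FLO1, 1.88 for FLO9 and 0.99 for FLO10. Minus stationary phase it was 3.33 for FLO1, and minus the chemostat 3.59 for FLO1 and 2.19 for FLO9. Day 1 minus day 0 was 3.34 for FLO1. Stationary minus log phase was -0.29 for FLO1, 0.92 for FLO9 and 0.82 for FLO10, and chemostat minus log phase -0.56, -0.31 and 0.13. With array weights (0.207 to 3.84, from an estimate that stopped with a convergence warning) day 1 minus day 0 was 5.52 for FLO1, 0.49 for FLO10, -0.0104 for FLO11 and -0.0433 for FLO8, and day 17 minus day 1 was -0.92 for FLO1, -0.31 for FLO9, 0.0135 for FLO10, -0.65 for FLO11 and 0.48 for FLO8. With the mean of days 10 and 17, FLO8 was higher by 0.87, 0.51 and 1.01 than in log phase, stationary phase and chemostat. The correlation of FLO1 and FLO9 over bead arrays stayed between 0.91 and 0.95.

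Counts of called list genes (of 73) under repeated quantile normalization were 5 higher and 2 lower against log phase, 5 and 3 against stationary phase, 1 lower against the chemostat, 1 lower at day 1 against day 0 and 1 lower at day 17 against day 1. With only the groups compared, 1 was lower at day 1 against day 0. With the mean of days 10 and 17, 11 were higher against the chemostat, and with array weights 5 were higher at day 1 against day 0, and 7 higher and 3 lower at day 17 against day 1. Without a fold minimum 21 were higher against log phase, 14 higher and 23 lower against stationary phase, and 11 lower at day 1 against day 0. Leaving out single arrays gave 2 to 4 lower against the chemostat, 3 to 10 lower at day 1 against day 0, and 0 to 7 higher and 0 to 2 lower at day 17 against day 1. Arrays of equal replicate number at day 17 and day 1 had correlations of deviations from -0.164 to 0.264. Pairing among the other bead days was not tested. The replicate block gave 2 higher and 1 lower at day 17 against day 1, and over all genes 135 higher and 61 lower in place of 14 and 2. Over all genes repeated quantile normalization called 307 higher and 209 lower against log phase (864 and 798 as reported), 344 and 218 against stationary phase (645 and 786), 207 lower against the chemostat (541), 242 and 187 at day 1 against day 0 (543 and 563), and 31 and 20 at day 17 against day 1. Only the groups compared gave 254 and 200 at day 1 against day 0 and 0 and 0 at day 17 against day 1. No fold minimum gave 1356 and 1348 against log phase, 1105 and 1286 against stationary phase, 885 and 960 against the chemostat, and 832 higher at day 1 against day 0. Without day 1 replicate 4, day 17 against day 1 had 410 and 247, with array weights 458 and 301, and with the trended prior 7 and 0. Dim signals could not be left out, since ratios hold no signal level.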
